A study of Mus musculus with 59 samples.

Results

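Male mice heterozygous for Naa15 (HT, 5 libraries) were compared with wild-type males (WT, 5 libraries) when both had received fluoxetine, a serotonin reuptake inhibitor, and gene expression was measured in the prefrontal cortex at postnatal day 25. The 10 libraries were chosen by genotype, drug and sex, from 59 in the series, and every gene with a normalised count of at least 10 in at least 4 of the 59 libraries was kept, which was 17891 of 18088 genes. The mice were C57BL/6J, and the pups took up the drug with their mothers' milk over 3 weeks, from postnatal day 3 to day 24. The same genotype comparison in 3 other sets of mice served for reference: vehicle males (4 HT and 5 WT libraries), lithium males (5 HT and 5 WT) and fluoxetine females (5 HT and 5 WT). How the Naa15 allele was made and which pups were littermates are not given in the sources used here, so pups of 1 mother, and hence of 1 fluoxetine dose, may sit in 1 group, and the p-values measure the spread between these libraries. Libraries were made from poly(A) RNA with a stranded kit. The deposited values, called normalised counts here, are the authors' read counts scaled to a common depth. Differences are HT minus WT on the scale of log2(normalised count + 1), with the standard error (SE) of a limma fit across all 59 libraries, and a gene is said to have risen or fallen only where its Benjamini-Hochberg adjusted p from that fit was under 0.05.

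Naa15 encodes the auxiliary subunit that anchors the NatA complex to the ribosome, where the catalytic subunit Naa10 acetylates the N-terminus of many proteins as they are made. Loss of 1 NAA15 copy in people is associated with neurodevelopmental delay and with congenital heart defects. Fluoxetine blocks the serotonin transporter, which takes serotonin back into the nerve terminal, and in the juvenile period the prefrontal cortex is still refining its synapses, myelinating its axons and maturing its blood vessels.

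The 10 libraries held 25.7 to 32.9 M recovered reads each. Against all 59 libraries they lay on 1 side of the first principal component, with the WT fluoxetine females and the vehicle libraries other than WT female replicate 1; the lithium libraries and the HT fluoxetine females lay on the other side. Mitochondrially encoded genes took 5.66 to 6.38% of the HT and 5.74 to 7.83% of the WT counts (exact permutation test, two-sided p = 0.389), and the dependence of a library's values on GC content (p = 0.571) and on transcript length (p = 0.183) did not differ beyond the spread by the same test. All 10 libraries carried transcripts of the Y-linked gene Kdm5d, at 803 to 917 normalised counts, and Xist stayed at or below 179.7. Neuronal markers of the cortex were present in every library, with 186989 to 219844 summed normalised counts of 8 excitatory markers in HT and 216231 to 266614 in WT. Some libraries carried RNA of neighbouring regions. HT replicate 2 had 32648 summed counts of 11 striatal markers where the other 9 libraries had 8670 to 10368. WT replicate 5 had 3103 of 7 choroid plexus and ependymal markers (196 to 554 in the other 9) and 8101 of 8 olfactory bulb markers (1267 to 4067). The olfactory bulb sum was also raised in HT replicates 1 (3800) and 5 (4067), beside 1267 to 1961 in the remaining libraries. The summed markers of astrocytes, endothelium, and pericytes and smooth muscle were lower in every HT than in every WT library, as given with those cell types below, and their part in the other results was not tested.

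Naa15 mRNA was not lower in the HT males. Naa15 (ENSMUSG00000063273, chr3:51415148-51476507) averaged 1623 ± 135 in the HT males and 1550.2 ± 47.3 in the WT males normalised counts (SD, n = 5 each), a log2 difference of 0.063 ± 0.057 (adjusted p = 0.629), so the level of this transcript does not check the genotype labels. HT replicate 1 stood above the other libraries at 1855. Of 45 genes tested within 5 Mb of Naa15 on chromosome 3, limma called 0, with 7 at an unadjusted p under 0.05. Of all genes tested, 15.7% had such an unadjusted p. The catalytic subunit Naa10 (519.8, 538, 554, 572 and 543 in the HT males, against 474, 495, 507, 493 and 522 in the WT males) did not pass the test (log2 difference 0.13 ± 0.066, adjusted p = 0.330), nor did the paralogue Naa16 (-0.019) or the associated acetyltransferase Naa50 (0.054). Of 5 measured genes of NatA and its partners and 8 of the other N-terminal acetyltransferases, 0 were called by limma, with 0 and 3 at an unadjusted p under 0.05, 0 by edgeR and 1 by DESeq2. The nearest was Naa38, the accessory subunit of NatC, at 435, 484, 497, 522 and 439 in the HT males, against 418, 373, 365, 423 and 391 in the WT males. For Naa38 the log2 difference was 0.27 ± 0.079 (adjusted p = 0.0626), with no overlap between the genotypes.

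Of 17891 genes, 144 rose and 143 fell in the HT males, 287 in all or 1.6% (0.805% higher and 0.799% lower), and 2807 (15.7%) had an unadjusted p under 0.05. The changes were small, with a median of 0.26 among genes that rose and -0.32 among genes that fell. In 215 of the 287 the 5 HT and 5 WT values did not overlap (106 of those that rose, 109 of those that fell). Of all genes tested, 803 (4.49%) were separated in this way, 357 (2%) with HT higher and 446 (2.49%) with HT lower. The count depended on single libraries: it was 70 without HT replicate 2, 105 without WT replicate 3, 141 without HT replicate 4, 148 without HT replicate 1, 149 without WT replicate 4 and 189 without WT replicate 2. It was 108 when only these 10 libraries were fitted, and 271 with edgeR and 409 with DESeq2 on the recovered reads.

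**Figure D1:**
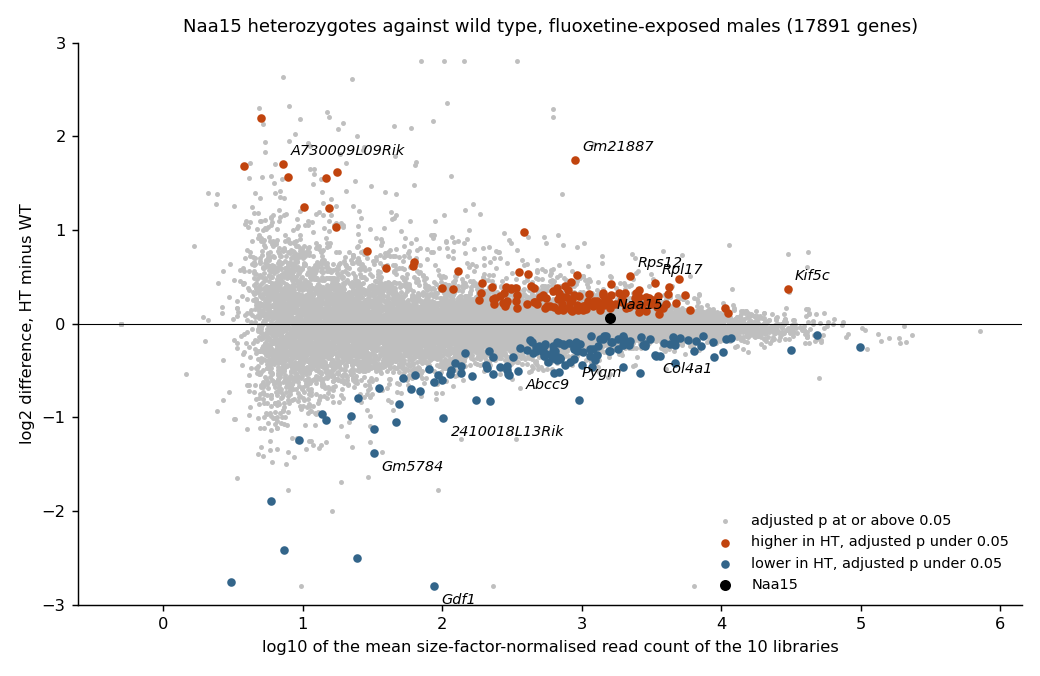
Log2 difference (HT minus WT, vertical axis) of 17891 genes against log10 of their mean normalised count over the 10 fluoxetine male libraries; coloured points passed the adjusted threshold of 0.05, with differences beyond ±2.8 drawn at that limit. The 144 genes that rose and 143 that fell lie close to 0 at high counts, and Kif5c stands apart from genes of its level.

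The smallest p-value belonged to Kif5c, the neuronal heavy chain of kinesin-1, the motor that carries cargo along axonal microtubules. Kif5c (ENSMUSG00000026764, chr2:49619298-49774778) had 34313, 36212, 31994, 35556 and 31232 in the HT males, against 27065, 26645, 26416, 27082 and 23793 in the WT males. For Kif5c the log2 difference was 0.37 ± 0.044 (adjusted p = 7.75e-07). Every HT library exceeded every WT library, the lowest WT value being replicate 5. Kif5b, the heavy chain found in most cell types, had 6852, 6258, 5708, 6133 and 5551 in the HT males, against 4863, 5066, 5012, 4921 and 4815 in the WT males. For Kif5b the log2 difference was 0.30 ± 0.064 (adjusted p = 0.00919), again with no overlap. The third heavy chain, Kif5a, did not pass the test at 74901 ± 3954 in the HT males and 73964 ± 6218 in the WT males (SD, n = 5 each, 0.021, adjusted p = 0.919). Of the 7 kinesin-1 genes tested 2 rose and 0 fell, where 0.805% of all genes rose. Both calls held under each alternative fit and each single omission run here. Kif5c was also higher in HT in the vehicle males (0.30 ± 0.047, adjusted p = 0.000841), the lithium males (0.26 ± 0.044, adjusted p = 0.00382) and the fluoxetine females (0.24 ± 0.044, adjusted p = 2.06e-05), none of which shares a library with the fluoxetine males.

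Histone H1f0 (ENSMUSG00000096210, chr15:79028450-79030504), the linker histone of cells that have stopped dividing, had 2641, 2948, 2589, 2906 and 2578 in the HT males, against 2108, 2093, 2098, 2216 and 2331 in the WT males. For H1f0 the log2 difference was 0.33 ± 0.058 (adjusted p = 0.00138), a rise that no alternative ended. The replacement histone H2afj rose as well, at 831, 917, 1044, 1096 and 977 in the HT males, against 599.7, 672, 684, 909.8 and 715 in the WT males. For H2afj the log2 difference was 0.45 ± 0.12 (adjusted p = 0.0295), although WT replicate 4 reached the HT range. Of 21 linker, replacement and polyadenylated histone genes 2 rose and 0 fell, where 0.805% of all genes rose. Of the 21, 19 had a positive difference, and the median was 0.17, beside -0.0033 over all genes tested. Hist1h1c, another linker histone, was separated between the genotypes at 402, 498, 421, 395 and 399 in the HT males, against 239.9, 277, 294, 336 and 314 in the WT males without passing the test (log2 difference 0.54 ± 0.16, adjusted p = 0.0679). The H2afj call ended without HT replicate 2, 3 or 4 or WT replicate 1, 2, 3 or 5 (adjusted p 0.0510 to 0.0926).

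**Figure D2:**
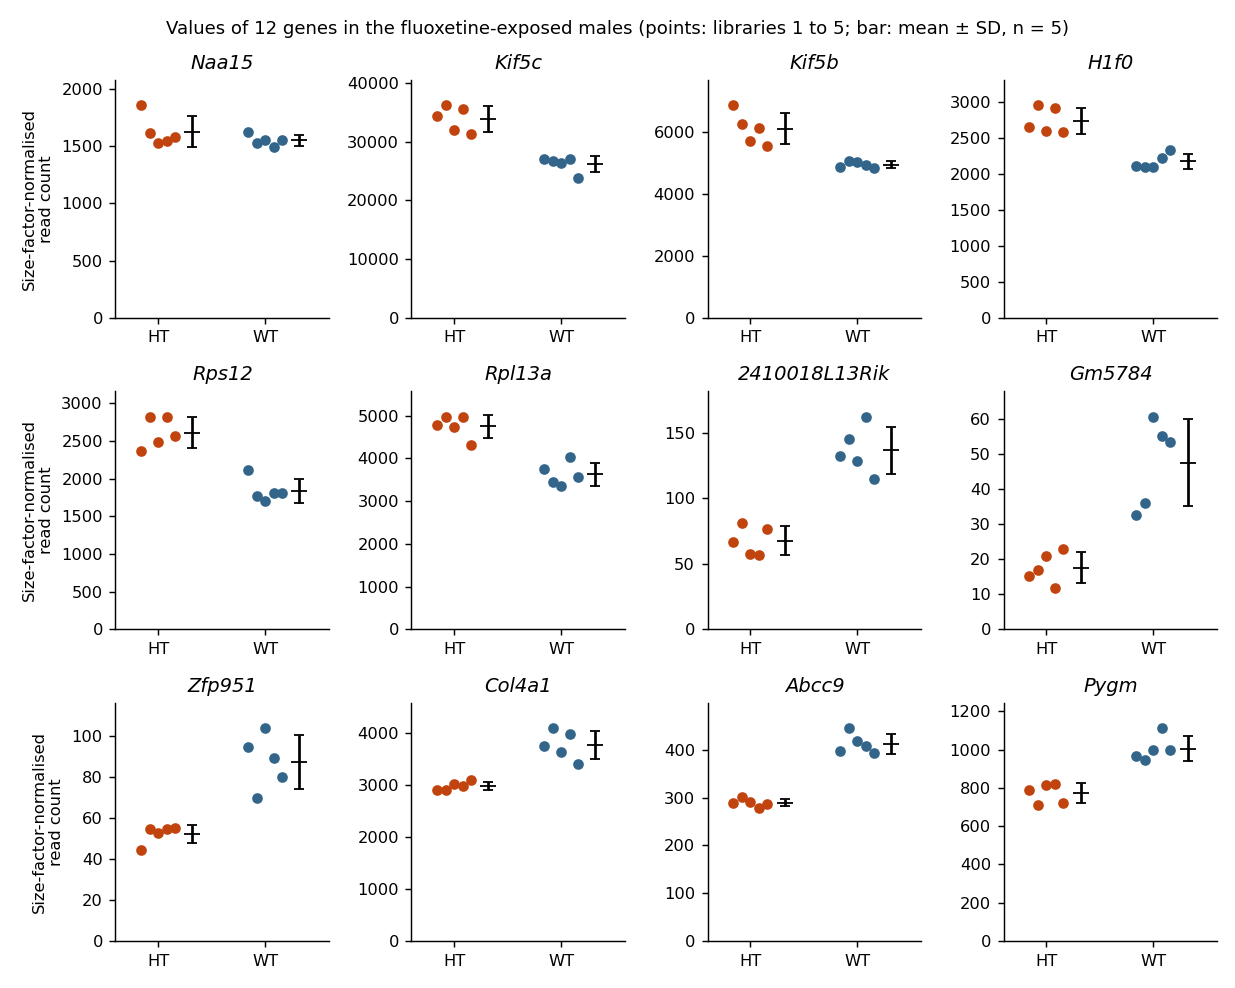
Normalised counts of 12 genes in the 5 HT and 5 WT fluoxetine male libraries (points, libraries 1 to 5 from left to right), with the mean and SD (n = 5). Apart from Naa15, every HT value lies on 1 side of every WT value.

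A stretch of chromosome 12 held 6 of the genes that fell. Between 19301653 and 23010284 (GRCm38), 22 genes were tested, 6 identifiers fell and 0 rose, where 0.799% of all genes fell. The stretch was singled out after the values were seen. Its bounds are the outer ends of the 6 that fell, so the count describes the stretch and is no test of it. The long noncoding RNA 2410018L13Rik (ENSMUSG00000073164, chr12:22953997-23010284) had 66.9, 81.1, 57.5, 56.5 and 76.7 in the HT males, against 132, 145, 129, 162 and 115 in the WT males. For 2410018L13Rik the log2 difference was -1.01 ± 0.13 (adjusted p = 8.01e-06). Gm5784 (ENSMUSG00000093908, chr12:19387809-19433081) had 15.2, 16.8, 20.98, 11.9 and 22.8 in the HT males, against 32.5, 35.9, 60.5, 55.0 and 53.5 in the WT males. For Gm5784 the log2 difference was -1.38 ± 0.19 (adjusted p = 1.58e-05). In both genes each HT library was below each WT library, and no alternative or omission ended either call. The 2 overlapping identifiers named 1700030C10Rik, whose reads cannot be told apart, the neighbouring Gm49769 (-2.42, adjusted p = 0.0201) and Gm46339 (-1.90, adjusted p = 0.0395) made up the rest at counts that were mostly under 65.3 per library. The Gm49769 call ended without HT replicate 1 or 2 (adjusted p 0.0705 to 0.101), and that of Gm46339 without HT replicate 1, 2, 4 or 5 or WT replicate 3, 4 or 5 (adjusted p 0.0573 to 0.113). All 6 identifiers had negative differences in the vehicle males, the lithium males and the fluoxetine females too: 2410018L13Rik averaged 76.2 ± 11.05 in the HT vehicle males and 121 ± 17.5 in the WT vehicle males, 75.3 ± 7.82 in the HT lithium males and 128 ± 16.8 in the WT lithium males, and 71.8 ± 7.32 in the HT fluoxetine females and 130.3 ± 12.8 in the WT fluoxetine females (SD).

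Among zinc finger genes, Zfp951 (ENSMUSG00000072774, chr5:104813169-104860070) had 44.6, 54.4, 52.9, 54.5 and 54.9 in the HT males, against 94.5, 69.6, 104, 89.3 and 80.2 in the WT males. For Zfp951 the log2 difference was -0.72 ± 0.15 (adjusted p = 0.00574), and no single omission ended the call (highest adjusted p 0.0313). Its difference was -0.49 ± 0.15 in vehicle males, -0.56 ± 0.15 in lithium males and -0.63 ± 0.15 in fluoxetine females. Gm14419 was the 1 member called of a chromosome 2 cluster of near-identical zinc finger genes. Of the 35 tested, 1 fell and 0 rose, where 0.799% of all genes fell. Gm14419 had 67.9, 61.3, 58.4, 76.3 and 76.7 in the HT males, against 130.1, 95.1, 108, 101 and 93.6 in the WT males. For Gm14419 the log2 difference was -0.62 ± 0.16 (adjusted p = 0.0302). Reads of such copies may be divided between them by the counting. The Gm14419 call ended without HT replicate 1, 2 or 3 or WT replicate 1, 3 or 4 (adjusted p 0.0552 to 0.11). Of the 35 cluster genes, 0 rose and 3 fell in the vehicle males and likewise in the lithium males, but 18 rose and 2 fell in the fluoxetine females (median 0.31, beside -0.035 in the fluoxetine males). Over all genes tested, 0.0279% fell in the vehicle males and 0.0503% in the lithium males, while 19.2% rose and 20.2% fell in the fluoxetine females. The HT fluoxetine females lie with the lithium libraries on the first principal component, and the part of this in the cluster was not tested.

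Gdf1, a growth factor of the TGF-beta family encoded on a transcript shared with the ceramide synthase Cers1, was listed at 0 in all 5 HT males, against 79.3, 199, 115, 399 and 78.4 in the WT males (adjusted p = 0.00115). It was also listed at 0 in 6 of the other 54 libraries of the series, 2 of them among the 4 HT vehicle males, and at 47.1 to 98.0 in the HT lithium males. Cers1, which overlaps it, did not pass the test (3728 ± 229 in the HT males and 3672 ± 78.2 in the WT males, SD, n = 5 each, 0.020, adjusted p = 0.898), and how reads of overlapping transcripts were assigned is not stated. Gm21887, an X-linked gene at the edge of the pseudoautosomal region, showed the greatest rise among genes averaging 100 or more: 733, 1019.7, 1486, 1492 and 2192 in the HT males, against 274, 239, 375, 658 and 517 in the WT males. For Gm21887 the log2 difference was 1.75 ± 0.42 (adjusted p = 0.0221). Its difference had the opposite sign in the fluoxetine females (-1.07, adjusted p = 0.0373), and its call in the males ended without HT replicate 4 or 5 or WT replicate 2 or 3 (adjusted p 0.0517 to 0.0606). The noncoding RNA A730009L09Rik (ENSMUSG00000110358, chr16:84515121-84523888) was low throughout, at 12.2, 10.9, 13.7, 8.92 and 12.4 in the HT males, against 3.05, 2.32, 4.32, 3.12 and 1.78 in the WT males. For A730009L09Rik the log2 difference was 1.71 ± 0.35 (adjusted p = 0.00778), with every HT library higher.

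Genes of cytosolic ribosomal proteins were the largest group to rise among the lists examined here, with 22 members. The starts of 3 of them are shown because genes of this family carry a pyrimidine-rich stretch at the transcription start, which in mammals puts their translation under control of the mTOR pathway; the start of Kif5c is given beside them. Each window runs from 15 bases before the annotated start to 15 from it on (RefSeq, GRCm38.p6), 5′ to 3′, and the capitals mark its longest run of C and T.
Rps12 (chr10:23787195-23787224, minus strand): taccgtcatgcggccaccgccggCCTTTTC
Rpl13a (chr7:45128731-45128760, minus strand): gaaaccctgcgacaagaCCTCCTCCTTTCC
Rps18 (chr17:33955651-33955680, minus strand): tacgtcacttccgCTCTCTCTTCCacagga
Kif5c (chr2:49619271-49619300, plus strand): tgccgaggcggggcagaggggcgggCCTgg
A run of at least 8 pyrimidines on the transcribed strand lay in this window in 10 of the 20 ribosomal protein genes that rose and have an entry in the table (50%), in 15 of 37 that did not pass the test (40.5%) and in 1909 of 12667 tested genes (15.1%); among other genes that rose it was 15 of 88 (17.0%). Of the starts shown, that of Rps12 had a longest run of 7, at the edge of the window, which falls short of 8. The run is a feature of the family, and a match in the window is a description, not a site of control.

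Of 77 genes of cytosolic ribosomal proteins 22 rose and 0 fell, and 68 had a positive difference (median 0.15), where 0.805% of all genes rose. Rps12 (ENSMUSG00000061983, chr10:23785183-23787275), a protein of the small subunit, had 2363, 2819, 2481, 2813 and 2569 in the HT males, against 2112, 1770.3, 1699, 1807 and 1803 in the WT males. For Rps12 the log2 difference was 0.51 ± 0.10 (adjusted p = 0.00393). Rpl13a, of the large subunit, had 4779, 4973, 4743, 4966 and 4307 in the HT males, against 3752, 3452, 3353, 4034 and 3575 in the WT males. For Rpl13a the log2 difference was 0.39 ± 0.075 (adjusted p = 0.00393). For both genes the groups were apart. Rps18 (2828, 3051, 2854, 3116 and 2745 in the HT males, against 2352, 2093, 2187, 2345 and 2371 in the WT males, log2 difference 0.36 ± 0.070, adjusted p = 0.00393) showed the same separation, and so did Rps24 (4645 ± 297 in the HT males and 3729.9 ± 287 in the WT males, SD, n = 5 each, 0.32, adjusted p = 0.00360) and Rpl17 (3822 ± 183 in the HT males and 2836 ± 180.5 in the WT males, 0.43, adjusted p = 0.000344). These 5 calls survived every alternative and every single omission; many ribosomal protein genes have processed copies whose reads may be split from theirs. The number of members called was less stable, at 9 without HT replicate 2 or without WT replicate 3, 11 without HT replicate 4, 13 without HT replicate 1, 14 without WT replicate 2, and 12 when only the 10 libraries were fitted.

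In the vehicle males the ribosomal protein genes had a median of 0.18 and in the fluoxetine females of 0.17, while in the lithium males it was -0.040. Rps18, Rps23 and Rpl27a were called higher in the vehicle males as well (0.39, 0.41 and 0.30, adjusted p = 0.0112, 0.0416 and 0.0301). Rps12 was 0.47 ± 0.10 in the vehicle males, -0.032 ± 0.10 in the lithium males and 0.080 ± 0.10 in the fluoxetine females.

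Of 66 nuclear genes of the mitochondrial respiratory chain, 9 rose and 0 fell (median 0.12, 64 positive), where 0.805% of all genes rose. Ndufb2, a subunit of complex I, had 1036, 970.3, 993, 994 and 917 in the HT males, against 851, 841, 836, 882 and 868 in the WT males. For Ndufb2 the log2 difference was 0.20 ± 0.042 (adjusted p = 0.00919). Uqcrfs1, the iron-sulphur subunit of complex III, averaged 2610.5 ± 90.9 in the HT males and 2266 ± 92.6 in the WT males (SD, n = 5 each, 0.20, adjusted p = 0.0168), and Cox5a, a subunit of complex IV, 2655 ± 54.1 in the HT males and 2189.6 ± 131 in the WT males (0.28, adjusted p = 0.0221). For these 3 genes all HT values exceeded all WT values. Of the mitochondrially encoded genes, 0 of 15 were called by limma, edgeR or DESeq2, with a median of -0.12. At an unadjusted p under 0.05 there was 1, beside 15.7% of all genes tested. Of 78 mitochondrial ribosomal protein genes, a list added after the values were seen, 4 rose and 0 fell, beside the same 0.805% of all genes. That count was 0 without HT replicate 2, 1 without WT replicate 3, and 2 without HT replicate 3 or 4 or WT replicate 2 or 5. It was 1 with only males or only the 10 libraries, 7 among genes averaging 100 or more, 9 with length and GC slopes as covariates and 8 with DESeq2.

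Genes that rose were short, with a median transcript length of 1892 bases against 4081 for genes that fell and 3174.5 for all tested, and a median GC content of 48.3%, 53.5% and 49.4%. When a trend on length and GC content was removed from each library, 19 of 77 ribosomal protein genes still rose but only 1 of 66 respiratory chain genes did (Ndufb2 adjusted p = 0.0520, Uqcrfs1 0.0705, Cox5a 0.132). The count for the respiratory chain was 2 without HT replicate 2, HT replicate 4 or WT replicate 3, 3 without HT replicate 1 or WT replicate 2, 4 without WT replicate 5, and 3 with only the 10 libraries. The Cox5a call ended without HT replicate 2 or 4 or WT replicate 2 or 3 (adjusted p 0.0517 to 0.0662).

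Hnrnpab and Hnrnpll, RNA-binding proteins of the heterogeneous nuclear ribonucleoprotein family, rose, as did Hnrnpa0. Of 20 members of the family, a list added after the values were seen, 3 rose and 0 fell, where 0.805% of all genes rose. The Hnrnpa0 call ended without HT replicate 2 or 4 (adjusted p 0.0593 to 0.0595). Hnrnpab (ENSMUSG00000020358, chr11:51600100-51606847) had 3055, 3345, 3185, 3281 and 3075 in the HT males, against 2633, 2657, 2488, 2611 and 2702 in the WT males. For Hnrnpab the log2 difference was 0.28 ± 0.047 (adjusted p = 0.000470), with no overlap and no loss of the call under any alternative. Its difference in the other sets was 0.050 ± 0.050 in vehicle males, 0.018 ± 0.047 in lithium males and 0.043 ± 0.047 in fluoxetine females. Hnrnpll, which regulates splicing in lymphocytes, averaged 1689.8 ± 85.8 in the HT males and 1452 ± 67.4 in the WT males (SD, n = 5 each, 0.22, adjusted p = 0.00393).

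**Figure D3:**
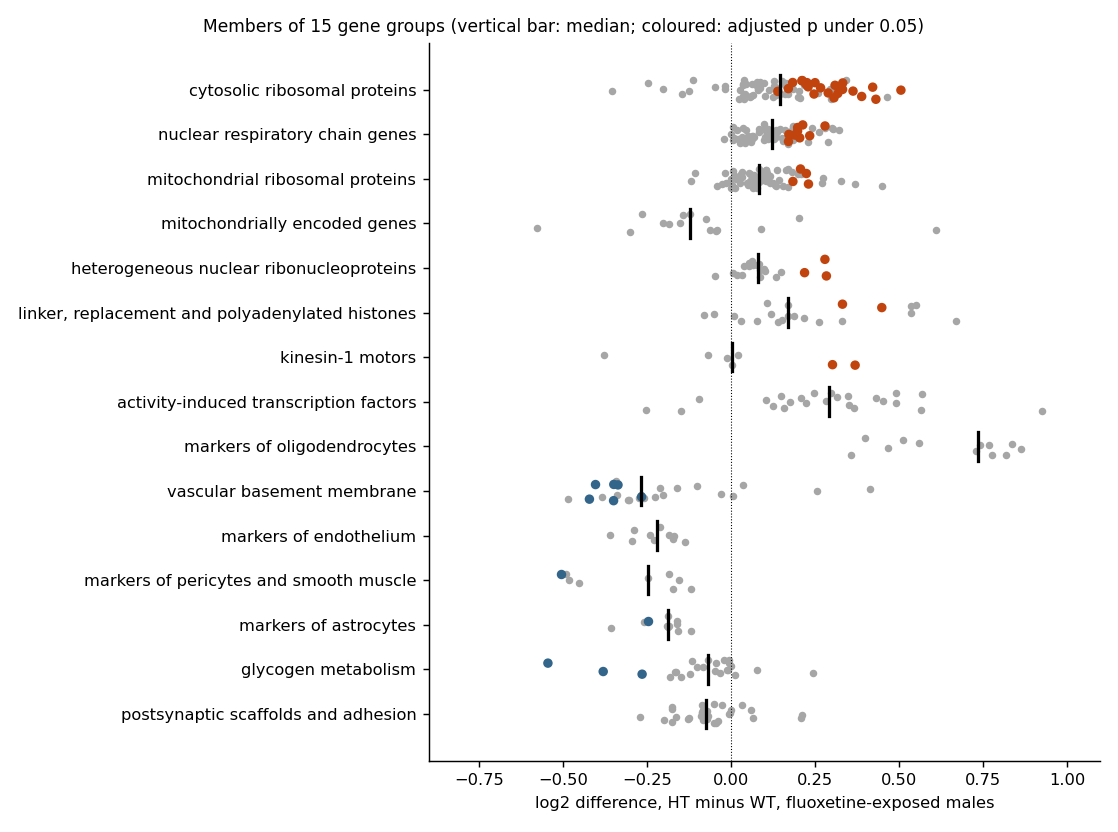
Log2 differences (HT minus WT, horizontal axis) of the tested members of 15 gene groups in the fluoxetine males, 1 point per gene, with the median as a bar and genes past the adjusted threshold of 0.05 coloured. Ribosomal protein and respiratory chain genes lie mostly right of 0, and basement membrane genes and endothelial, pericyte and astrocyte markers mostly left of it.

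Of 25 genes of the vascular basement membrane, a list added after the values were seen, 6 fell and 0 rose, with a median of -0.27, where 0.799% of all genes fell. Col4a1 (ENSMUSG00000031502, chr8:11198423-11312826), a chain of the type IV collagen network that underlies the endothelium, had 2903, 2908, 3019, 2991 and 3093 in the HT males, against 3754, 4095, 3639, 3986 and 3400.4 in the WT males. For Col4a1 the log2 difference was -0.34 ± 0.072 (adjusted p = 0.00968). Its partner chain Col4a2 had 3009, 3123, 3205, 3431 and 3313 in the HT males, against 4124, 4284, 3915, 4580.0 and 3631 in the WT males. For Col4a2 the log2 difference was -0.35 ± 0.078 (adjusted p = 0.0130). In both, the highest HT library was below the lowest WT library. Fibronectin (Fn1, -0.42, adjusted p = 0.0221), perlecan (Hspg2, -0.40, adjusted p = 0.0288), laminin alpha 5 (Lama5, -0.35, adjusted p = 0.0238) and laminin beta 2 (Lamb2, -0.27, adjusted p = 0.0221) were the other 4, each separated between the genotypes. Single omissions ended the calls of Fn1 (HT replicate 2 or WT replicate 3, adjusted p up to 0.118), Lamb2 (HT replicate 1 or 2 or WT replicate 4, up to 0.1096), Lama5 (HT replicate 1, 2 or 4 or WT replicate 1, up to 0.0798) and Hspg2 (7 of the 10 libraries, up to 0.0886). The count was 2 without HT replicate 2, 3 without HT replicate 1 or WT replicate 4, and 4 without HT replicate 4, WT replicate 1 or WT replicate 3. No omission ended the Col4a1 call, and that of Col4a2 ended without WT replicate 4 (adjusted p 0.0510).

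Among genes of the cells around the vessel, Abcc9 (ENSMUSG00000030249, chr6:142587862-142702315), the sulphonylurea receptor of pericyte and smooth muscle potassium channels, had 289.8, 301, 292, 279 and 287 in the HT males, against 398, 445, 418, 408 and 394 in the WT males. For Abcc9 the log2 difference was -0.51 ± 0.12 (adjusted p = 0.0144), a fall that no alternative ended. Notch3, the receptor that maintains smooth muscle and pericytes, had 568, 583, 595, 637 and 644 in the HT males, against 852, 874, 687, 790.3 and 739 in the WT males. For Notch3 the log2 difference was -0.38 ± 0.078 (adjusted p = 0.00875), and no single omission ended the call (highest adjusted p 0.0353). Both were fully separated between the genotypes. All 9 pericyte and smooth muscle markers had negative differences (median -0.25; 1 called), as had all 10 endothelial markers (median -0.22; 0 called by limma or edgeR, 2 by DESeq2, 5 at an unadjusted p under 0.05), among them the VEGF receptor Flt1 (log2 difference -0.30 ± 0.093, adjusted p = 0.0843). Of all genes tested, 0.799% fell and 15.7% had an unadjusted p under 0.05. The summed pericyte and smooth muscle markers ran from 7528 to 8583 in HT and from 9613 to 11554 in WT, and the endothelial sum from 7698 to 8083 in HT and from 8170 to 10773 in WT. In bulk tissue, fewer cells of a type and less RNA per cell cannot be told apart.

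Gja4, a gap junction protein of arterial endothelium, fell as well (91.5 ± 16.1 in the HT males and 134 ± 29.1 in the WT males, SD, n = 5 each, -0.54, adjusted p = 0.0286), a call that ended without HT replicate 1, 2 or 4 or WT replicate 3 or 4 (adjusted p 0.0848 to 0.135). Collagen Col1a1, a fibroblast gene, had 608, 489.6, 645, 596 and 631 in the HT males, against 784, 827, 724, 752 and 3465 in the WT males. For Col1a1 the log2 difference was -0.82 ± 0.22 (adjusted p = 0.0365). WT replicate 5, the library with choroid plexus markers, stood far above the rest, and without it the difference was -0.38 (adjusted p = 0.172); the call also ended without HT replicate 1, 2 or 4 (adjusted p 0.0662 to 0.138). In the vehicle males the basement membrane median was -0.080 and in the lithium males -0.00079, with Col4a1 at -0.058 ± 0.076 and -0.11 ± 0.072. In the fluoxetine females the median was -0.41 and Col4a1 fell by 0.56 ± 0.07 (SE, adjusted p = 1.16e-08), where 20.2% of all genes fell. The HT fluoxetine females lie with the lithium libraries on the first principal component. Col4a1 averaged 2368 in the HT and 3488 in the WT fluoxetine females, beside 2279 in the HT and 2449 in the WT lithium males. The part of that position in the fall was not tested.

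**Figure D4:**
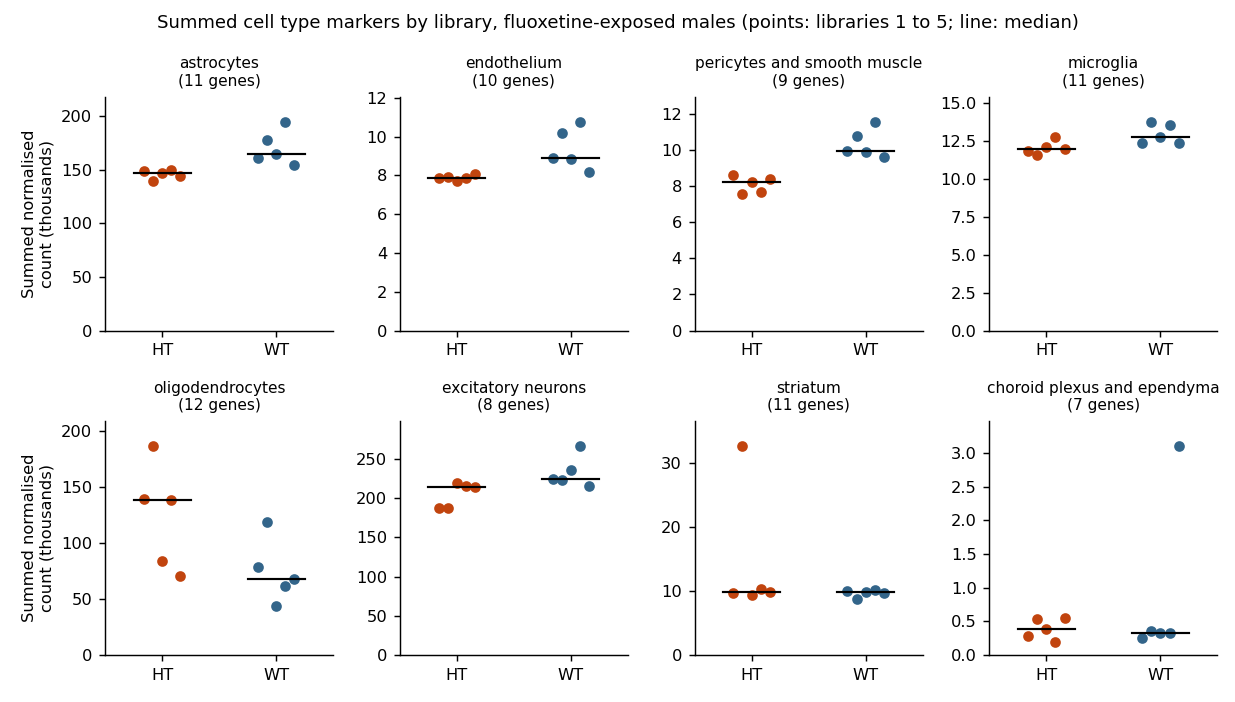
Summed normalised counts (in units of 1000) of the markers of 8 cell types or neighbouring regions in the 5 HT and 5 WT fluoxetine male libraries (points; line, median). The HT and WT sums do not overlap for astrocytes, endothelium, and pericytes and smooth muscle, and single libraries stand apart for striatum (HT replicate 2) and choroid plexus (WT replicate 5).

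All 11 astrocyte markers had negative differences in HT (median -0.19), and 1 passed the test, where 0.799% of all genes fell. Their sum ran from 139204 to 150029 in HT and from 154641 to 194868 in WT without overlap. Taken singly, 1 of the 11 had every HT value below every WT value, beside 2.49% of all genes tested. The marker called was the glutamate transporter Slc1a2, at 95504, 85733, 91827, 93208 and 86705 in the HT males, against 103712, 112918, 105016, 124232 and 93617 in the WT males. For Slc1a2 the log2 difference was -0.25 ± 0.069 (adjusted p = 0.0486). WT replicate 5 lay within the HT range, and the call ended without HT replicate 1, 2, 3, 4 or 5 or WT replicate 1, 2, 3 or 4 (adjusted p 0.0546 to 0.198). Slc1a2 made up most of the astrocyte marker sum in every library. Mgll, the lipase that degrades the endocannabinoid 2-arachidonoylglycerol, averaged 7832 ± 619 in the HT males and 10061 ± 1228 in the WT males (SD, n = 5 each, -0.36, adjusted p = 0.0124), and its call ended without HT replicate 2 or WT replicate 4 (adjusted p 0.0606 to 0.0646). The classical markers Gfap (-0.19, adjusted p = 0.475) and Aqp4 (-0.26, adjusted p = 0.405) did not pass the test.

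Glycogen is stored in the brain chiefly by astrocytes. Of 25 genes of its metabolism, a list added after the values were seen, 3 fell and 0 rose, where 0.799% of all genes fell. The count was 2 without HT replicate 2 or 4 or WT replicate 3 or 4, and with the length and GC trend removed. Pygm (ENSMUSG00000032648, chr19:6384399-6398459), the muscle-type glycogen phosphorylase, which astrocytes also make, had 787, 711, 817, 820.2 and 720.0 in the HT males, against 966, 944, 1001, 1111 and 1001 in the WT males. For Pygm the log2 difference was -0.38 ± 0.068 (adjusted p = 0.00148). Ppp1r3g, a subunit that targets protein phosphatase 1 to glycogen, had 237, 209.7, 279, 242 and 259 in the HT males, against 294, 357, 398, 399 and 348 in the WT males. For Ppp1r3g the log2 difference was -0.55 ± 0.11 (adjusted p = 0.00393). Both were separated between the genotypes and kept their calls in every alternative and omission. Of 15 brain matrix proteoglycans, a list added after the values were seen, 2 fell and 0 rose, beside the same 0.799% of all genes. Neurocan (Ncan), part of the matrix around neurons, averaged 10238 ± 438 in the HT males and 11446 ± 529 in the WT males (SD, n = 5 each, -0.16, adjusted p = 0.00919), a call lost on removing the length and GC trend (adjusted p = 0.127). Brevican (Bcan), of the same family, averaged 6582 ± 410.0 in the HT males and 7758 ± 704 in the WT males (-0.23, adjusted p = 0.0498), and HT replicate 4 overlapped WT replicate 3. The count was 1 in 8 of the 10 single omissions (all but those of HT replicate 4 and WT replicate 1) and 0 with only the 10 libraries.

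All 12 oligodendrocyte markers had positive differences, from 0.36 to 0.86 with a median of 0.73, and 0 were called by limma, edgeR or DESeq2 (4 at an unadjusted p under 0.05). Of all genes tested, 15.7% had such an unadjusted p. Summed oligodendrocyte markers ran from 70363 to 186569 in HT and from 43618 to 118981 in WT. The 14 markers of neuroblasts and dividing cells were also all positive (median 0.66; 0 called by all 3 tools, 6 at an unadjusted p under 0.05), and their sums overlapped (18181 to 21926 in HT, 16529 to 22111 in WT).

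Of 30 mitotic genes, a list added after the values were seen, 3 rose and 0 fell, where 0.805% of all genes rose. The count was 1 without HT replicate 1, 2 or 4 or WT replicate 3, 5 without HT replicate 3, and 0 with only the 10 libraries. The fit of genes averaging 100 or more kept 2 of the 30, with 0 called, so it cannot check the genes of lower count. Pimreg (11.7 ± 4.80 in the HT males and 3.89 ± 3.39 in the WT males, SD, n = 5 each, adjusted p = 0.0267) and Kif18b (14.99 ± 5.53 in the HT males and 5.47 ± 1.52 in the WT males, adjusted p = 0.0346) were low and overlapped between the genotypes. Diaph3, a formin of the cytokinetic machinery, rose to 87.1, 66.3, 71.2, 93.1 and 65.3 in the HT males, against 35.6, 60.3, 45.4, 59.2 and 42.8 in the WT males. For Diaph3 the log2 difference was 0.66 ± 0.13 (adjusted p = 0.00618), with no overlap, and no single omission ended the call (highest adjusted p 0.0284). Trim71, a repressor of mRNAs that is characteristic of early development, had 44.6, 37.6, 37.4, 40.6 and 24.9 in the HT males, against 20.3, 22.03, 23.8, 20.8 and 17.8 in the WT males. For Trim71 the log2 difference was 0.77 ± 0.16 (adjusted p = 0.00911), also without overlap, and no single omission ended the call (highest adjusted p 0.0336). Diaph3 and Trim71 were also low, and with only the 10 libraries in the fit neither passed the test (adjusted p = 0.0935 and 0.0684).

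The remaining large differences were spread over several kinds of gene. Scand1, a protein with a SCAN domain, had 375, 497, 565, 600.3 and 493 in the HT males, against 169.8, 298, 179, 388 and 294 in the WT males. For Scand1 the log2 difference was 0.98 ± 0.22 (adjusted p = 0.0124), with WT replicate 4 inside the HT range and a call that ended without WT replicate 3 (adjusted p 0.0550). Kcp, a secreted protein that modulates BMP signalling, had 123, 109.8, 149.6, 92.1 and 159.6 in the HT males, against 248, 221, 211, 247 and 176 in the WT males. For Kcp the log2 difference was -0.81 ± 0.17 (adjusted p = 0.00919). The Kcp values did not overlap, and no single omission ended the call (highest adjusted p 0.0421). Slc12a7, a potassium-chloride cotransporter, averaged 188 ± 21.1 in the HT males and 271 ± 15.4 in the WT males (SD, n = 5 each, -0.54, adjusted p = 0.0200), with no overlap, and its call ended without HT replicate 2 or WT replicate 3 (adjusted p 0.0553 to 0.100). Tusc1, Itih3, Tmem160, Tmem158, Fam163b, Cys1 and the ribosomal protein gene Rps21 completed the 12 greatest rises among genes averaging 100 or more, at differences of 0.42 to 0.56, and Adam33, Flvcr2, Vill, Echdc2 and Ddit4l were among the 12 greatest falls, at -0.83 to -0.53. Each of these 12 calls ended in 3 to 9 of the 10 single omissions, with adjusted p up to 0.182.

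In the neuronal signalling lists that follow, Grm2 and Kcnh3 passed the test, where 1.6% of all genes tested were called. Grm2, the presynaptic glutamate autoreceptor mGluR2, was the only member of 22 glutamate receptor genes that passed the test, at 1877, 1649, 2609, 2123 and 2546 in the HT males, against 2850.2, 2592, 3309.5, 3143 and 3519.9 in the WT males. For Grm2 the log2 difference was -0.53 ± 0.12 (adjusted p = 0.0124); HT replicate 3 slightly exceeded WT replicate 2, and the call ended without HT replicate 2 (adjusted p 0.0805). Kcnh3, a voltage-gated potassium channel of the forebrain, was the only member of 35 channel genes called, at 5229, 4951, 6155, 5870.3 and 6370.5 in the HT males, against 6440.4, 6585, 7056, 7835 and 7004 in the WT males. For Kcnh3 the log2 difference was -0.29 ± 0.077 (adjusted p = 0.0346), and its call ended without HT replicate 1, 2 or 4 or WT replicate 3, 4 or 5 (adjusted p 0.0590 to 0.174). None of 14 GABA-A receptor subunits, 32 postsynaptic, 32 presynaptic and 57 clustered protocadherin genes was called by limma or edgeR. DESeq2 called 0, 3, 0 and 1 of them, and 1, 12, 4 and 9 had an unadjusted p under 0.05, beside 15.7% of all genes tested. In the postsynaptic group 26 of 32 differences were negative (median -0.076) and in the presynaptic group 24 of 32 (median -0.038), with excitatory marker sums that were lower in HT but overlapped WT.

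Of 15 genes of serotonin signalling, the pathway on which fluoxetine acts, 0 were called by limma or edgeR and 1 by DESeq2. Of the 15, 3 had an unadjusted p under 0.05, beside 15.7% of all genes tested. Maob, the monoamine oxidase of astrocytes and serotonergic cells, had the smallest p (565, 536, 634, 533 and 582 in the HT males, against 602, 676, 754, 854 and 662 in the WT males, log2 difference -0.31 ± 0.088, adjusted p = 0.0551). The serotonin receptor Htr2a was -0.33 ± 0.12 (adjusted p = 0.138). Among 24 activity-induced transcription factors 0 were called by limma, where 1.6% of all genes were, and 1 each by edgeR and DESeq2. At an unadjusted p under 0.05 there were 9 of the 24 factors, beside the same 15.7% of all genes. Of these, 21 of 24 differences were positive (median 0.29), and Egr4 had the smallest p (958, 985, 1335, 1168 and 999.8 in the HT males, against 847, 859, 679.6, 764 and 710.2 in the WT males, log2 difference 0.49 ± 0.14, adjusted p = 0.0568), its groups being apart. Fos (0.57, adjusted p = 0.316) and the effector Arc (0.48, adjusted p = 0.518) varied widely within the HT males, Arc from 1818 to 6939.9.

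Where 0.799% of all genes fell, 1 of 20 glucocorticoid-induced genes fell and 0 rose. It was Nfkbia, the inhibitor of NF-kappa-B, at 607, 509, 632, 554 and 499 in the HT males, against 551, 711, 860.1, 975 and 986 in the WT males. For Nfkbia the log2 difference was -0.52 ± 0.13 (adjusted p = 0.0288); WT replicate 1 lay within the HT range, and the call ended without HT replicate 2, 4 or 5 or WT replicate 3, 4 or 5 (adjusted p 0.0636 to 0.113). The glucocorticoid target Fkbp5 did not differ beyond its error (-0.10, adjusted p = 0.746). Nkd1, a feedback inhibitor of Wnt signalling, was the 1 gene of 23 in its group that was called, where 0.799% of all genes fell. Its values were 539, 574, 611, 559.7 and 615 in the HT males, against 737, 754, 650.5, 737 and 672 in the WT males. For Nkd1 the log2 difference was -0.29 ± 0.072 (adjusted p = 0.0253), and that call ended without HT replicate 1, 2 or 4 or WT replicate 2 or 4 (adjusted p 0.0636 to 0.0739). Sterol synthesis (25 genes), the unfolded protein response (23) and heat shock chaperones (20) held 0 calls by limma, edgeR or DESeq2, with medians of 0.075, 0.046 and 0.10. Of their members 6, 4 and 7 had an unadjusted p under 0.05, beside 15.7% of all genes tested.

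The genotype difference under fluoxetine was then set against that under vehicle, to ask which genes respond to genotype differently when the drug is present. For the difference between the 2 genotype effects 0 of 17891 genes were called by limma (1016, or 5.68%, at an unadjusted p under 0.05), 0 by edgeR (967 unadjusted) and 1 by DESeq2 (916 unadjusted). In the vehicle males themselves 11 genes (0.0615%) were called, 6 higher (0.0335%) and 5 lower (0.0279%), with 9.36% at an unadjusted p under 0.05. Of these, 6 were called in the same direction under fluoxetine: Kif5c, Rps18, Rps23, Rpl27a, 2410018L13Rik and Gm14419. Of the 287 genes called under fluoxetine 266 (92.7%) had the same sign in the vehicle males, against 60.1% of all genes tested. Their sizes were smaller there, with a median of 0.13 for the genes that rose under fluoxetine (0.26 in the fluoxetine males, which chose them) and -0.099 for those that fell (-0.32). For Kif5c the effect under fluoxetine minus that under vehicle was 0.068 ± 0.065, for Rps12 0.036 ± 0.14, for Hnrnpab 0.23 ± 0.068, for Col4a1 -0.28 ± 0.10 and for Pygm -0.32 ± 0.10 (SE).

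**Figure D5:**
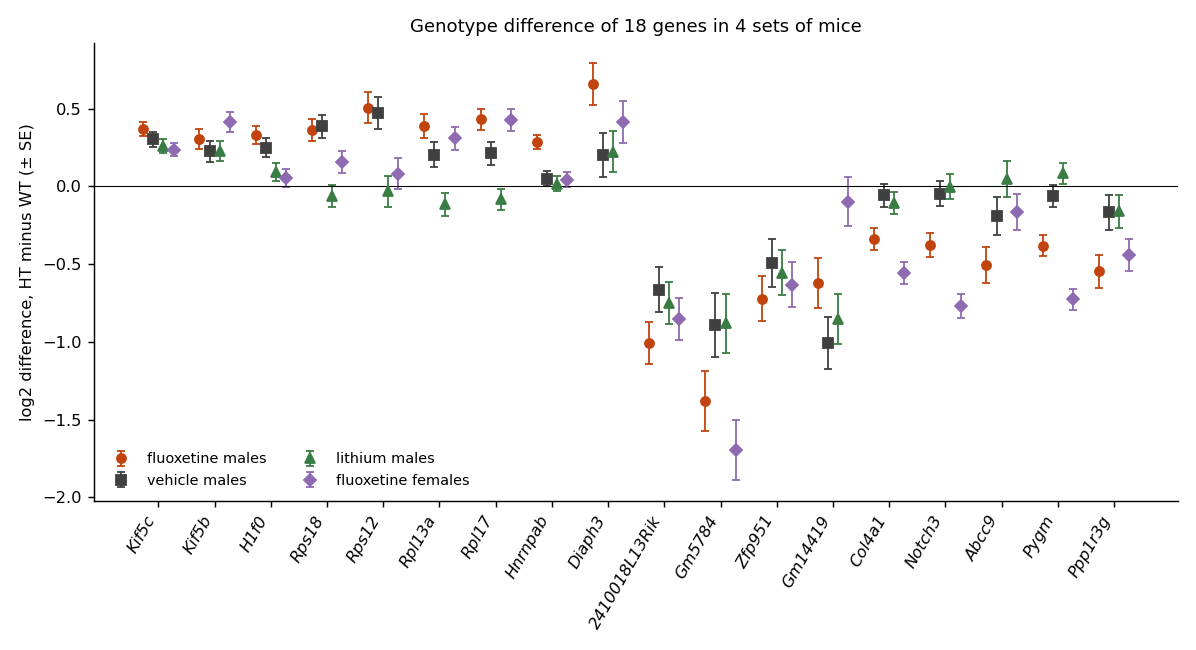
Log2 difference (HT minus WT, vertical axis, ± SE of the fit) of 18 genes in the fluoxetine males, vehicle males, lithium males and fluoxetine females. The kinesin genes, 2410018L13Rik, Gm5784 and Zfp951 keep their sign in all 4 sets, while Rps12, Rpl13a, Rpl17 and Rps18 are below 0 in the lithium males.

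Against lithium, 9 genes (0.0503%) differed in their genotype effect, 7 (0.0391%) with a higher value under fluoxetine and 2 (0.0112%) with a lower one, and 10.4% of genes had an unadjusted p under 0.05. All 3 ribosomal protein genes among them were higher in HT under fluoxetine and near or below 0 under lithium: Rpl17 was 0.43 under fluoxetine and -0.084 under lithium (difference 0.51 ± 0.10, adjusted p = 0.0195), Rpl13a 0.39 and -0.12 (difference 0.51 ± 0.11, adjusted p = 0.0355), and Rps24 0.32 and -0.091 (adjusted p = 0.0302). Hnrnpll (0.22 and -0.093), the pseudogene Gm15500, Rwdd1 and Ndufb9 made up the rest of the higher ones. Pygm was -0.38 under fluoxetine and 0.085 under lithium (adjusted p = 0.0302), and the dystroglycan gene Dag1, which ties astrocyte endfeet to the vascular basement membrane, was -0.10 and 0.12 (adjusted p = 0.0195). The count was 0 without HT fluoxetine replicate 1 or WT lithium replicate 2 and 52 without WT lithium replicate 5, ran from 3 to 21 where another single omission moved it by over 1.5 times, and was 22 with edgeR and 72 with DESeq2. The lithium libraries of both genotypes lie on the other side of the first principal component, and their part in this difference was not tested.

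Of the 287 called genes 163 (56.8%) had the same sign under lithium, near the 55.4% of all genes, but the directions differed. Of those that rose under fluoxetine 50 of 144 (34.7%) were positive under lithium, and of those that fell 113 of 143 (79.0%) were negative. In the lithium males themselves 16 genes (0.0894%) were called, 7 higher (0.0391%) and 9 lower (0.0503%). The 7 identifiers called in both sets had the same sign in each: Kif5c was higher, and 2410018L13Rik, Gm5784, Gm49769, 1 identifier of 1700030C10Rik, Gm14419 and Phf1, a Polycomb-associated protein, were lower.

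In the fluoxetine females 7062 genes (39.5%) differed between HT and WT, 19.2% higher and 20.2% lower, and 46.9% had an unadjusted p under 0.05. For 3434 genes (19.2%) the genotype effect differed between the sexes, 11.1% with a higher and 8.09% with a lower value in males (32.2% unadjusted). The 5 HT fluoxetine female libraries stand apart from those of the males, and the count fell to 581 when a length and GC trend was removed from each library and to 42 when each library's length and GC slopes entered the fit. Of the 287 genes called in the males 253 (88.2%) had the same sign in the females, against 60.8% of all genes. Genes with the smallest p for this difference included Upf1, the helicase of nonsense-mediated decay (0.0067 in males, -0.46 in females), Actb (-0.073 and -0.45), Nrxn2 (-0.086 and -0.59) and Sart1 (0.041 and -0.44), none of which was called in the males. Cacng8, an auxiliary subunit of AMPA receptors, rose in the males (log2 difference 0.22 ± 0.061, adjusted p = 0.0448) and fell in the females (-0.57, adjusted p = 1.27e-10), and its call in the males ended without HT replicate 1, 2, 3 or 4 or WT replicate 1, 2, 3, 4 or 5 (adjusted p 0.0543 to 0.143). Kif5b (0.41), Rpl17 (0.43) and Col4a1 (-0.56) kept in the females the direction seen in the males.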

How the data were processed

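RNA sequencing of the prefrontal cortex gave 1 table of 18088 genes in 59 libraries. The deposited signal is in normalised counts: in each library, 100% of the values from 1 to 1000 reads were whole multiples of 1 step within 0.01 read, so each library had been scaled by 1 factor, and dividing by the step gave back the reads. Per the submitters' processing notes, the tools included Salmon (version 0.11.2), DESeq2 (version 1.19.11) and R (version 3.6.0), with the build GRCm38. Their roles are not stated. Division of reads between near-identical copies or overlapping transcripts can move single values. Depth was 25.7 to 32.9 M reads in the 10 libraries (24.99 to 32.87 M in all 59), and precision from depth covers counting error only. No library duplicated another.

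Differences were tested with limma-trend (version 3.58.1, under R 4.3.3) after adding 1 and taking log2. The fit had 1 mean for each of 12 groups (47 residual degrees of freedom). Tests were two-sided, with Benjamini-Hochberg adjustment over 17891 genes in each comparison and a threshold of 0.05. Interactions were differences of differences. Log2 differences understate the change of low genes. Positions, lengths and GC content came from GENCODE M21 (18077 identifiers matched) and start sequences from RefSeq (GRCm38.p6). Alternatives were edgeR (4.0.16) and DESeq2 (1.42.0) run on the reads so obtained, other scalings, filters, constants and sample sets, a replicate block, and leaving out each library. The fit with length and GC slopes as covariates and the fit on 34 libraries were added after the data were seen. The scripts were tested on simulated data.

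The comparison, its gene lists and its tests were chosen with earlier results of these data known. Named genes were the 12 greatest rises and falls with a mean of 100 or more, the 6 smallest p among called genes below that level, Naa15, up to 4 called members of each list not added later (or its smallest p) and up to 6 genes per interaction. Low ranks were left out for length. The lists of basement membrane, glycogen, matrix, ribonucleoprotein, mitochondrial ribosomal and mitotic genes were added after the values were seen. So were the names Bcan, Pimreg, Kif18b, Trim71, Notch3, Mgll, Cers1, Kif5a, Hist1h1c, Naa16, Naa50, Gfap, Aqp4, Fos, Arc, Fkbp5, Htr2a, Gm49769 and Gm46339. The names Col4a1, Col4a2, Fn1, Hspg2, Lama5, Lamb2, Hnrnpab, Hnrnpa0 and Ncan, from the added lists, were also chosen then. Some members that the lists count are not reported here by name.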

Additional observations from a re-analysis of the deposited data

Results flagged for a closer look

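Of 214 sets of 5 values examined (genes and summed markers, in HT and WT separately), 15 held 1 library whose gap to the nearest other exceeded 0.71 of the set's range, where chance gives about 1 in 20. In WT replicate 5, markers of choroid plexus and ependyma summed to 3103 where the other WT libraries had at most 352 (gap 0.965 of the range). Olfactory bulb markers summed to 8101 there (0.924), markers of meninges and fibroblasts to 14983 (0.735), markers of neuroblasts and dividing cells to 22111 (0.714), and Col1a1 stood at 3465 where the others had 724 to 827 (0.963). Kif5c was lowest there at 23793, beside 26416 to 27082 (0.797). In HT replicate 2, striatal markers summed to 32648, beside 9314 to 10368 in the other HT libraries (0.955), and Hist1h1c stood at 498, beside 395 to 421 (0.744). In HT replicate 1, Naa15 was highest at 1855, beside 1523 to 1614 (0.727), Naa50 was highest at 2271, beside 1842 to 1866 (0.944), and Zfp951 was lowest at 44.6, beside 52.9 to 54.9 (0.806). In HT replicate 5, Lama5 was highest at 618 (0.765) and the GABAergic interneuron markers summed to 41425, beside 38392 to 38792 (0.868). In WT replicate 1, Rps12 was highest at 2112, beside 1699 to 1807 (0.738), and Aqp4 was lowest at 3527, beside 4123 to 4250.1 (0.824).

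The genotype effect differed between fluoxetine and lithium males (fluoxetine minus lithium, log2 scale) by 0.51 for Rpl17, 0.51 for Rpl13a, 0.41 for Rps24, 0.39 for Ndufb9, 0.35 for Gm15500, 0.31 for Hnrnpll, 0.26 for Rwdd1, -0.22 for Dag1 and -0.47 for Pygm. Between males and females under fluoxetine (males minus females) it differed by 0.79 for Cacng8, 0.50 for Nrxn2, 0.48 for Sart1, 0.47 for Upf1, 0.37 for Actb and -1.91 for mt-Atp6. The lithium and HT fluoxetine female libraries lie on the other side of the fluoxetine males on the first principal component, and the part of this in these differences was not tested.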

How the results depend on the processing

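The 287 genes called between HT and WT became 108 with only these 10 libraries in the fit, 146 with only males, 1154 with length and GC slopes as covariates, and 70 to 305 as each library was left out. The other alternatives gave 216 to 409. The labels do not say whether replicate numbers pair the libraries. Residual correlations between HT and WT libraries of the same number were -0.041 to 0.142 (mean 0.068), beside a mean of -0.017 between other numbers. HT replicates 2, 3 and 5 correlated best with their own number, and 1 and 4 with another, so these values do not settle the pairing. A replicate block gave 137 calls, with 3 for the difference from lithium. The difference from vehicle stayed at 0 calls except for 1 with slopes as covariates and 1 with DESeq2. The 9 calls for the difference from lithium became 24 among genes averaging 100 or more, 2 after quantile normalisation, 3 with only the groups compared, 0 with only males, 15 with slopes as covariates, 22 with edgeR, 72 with DESeq2 and 0 to 52 as libraries were left out. The 3434 calls for males minus females became 581 with length and GC trends removed and 42 with slopes as covariates. The cause of each change was not tested.

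Among named genes that were called, 0 reversed under the alternatives run. Of 66, 37 kept the call with only the groups compared, 47 with only males, 53 with length and GC trends removed, and 32 without HT replicate 2. Reversals were limited to genes that were not called: Xist (0.14) became -0.24 with 5 added, -0.75 with edgeR, -0.81 with DESeq2 and ran from -1.24 to 0.64 over omissions; Upf1 (0.0067) became -0.0018 after median centring and ran from -0.0055 to 0.015; Naa16 ran from -0.057 to 0.015, Naa50 from -0.0047 to 0.073, Kif5a from -0.023 to 0.059 and Cers1 from -0.0099 to 0.052. Genes with few reads, such as A730009L09Rik, are limited by depth.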
